A study of Mus musculus with 9 samples.

Results

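The MHC class II pathway genes measured here were Ciita, Cd74, H2-Aa, H2-Ab1, H2-Eb1, H2-DMa, H2-DMb1, H2-DMb2 and H2-Oa. They were taken by symbol from the feature list of a single-cell RNA sequencing experiment, and all 9 were found among its 32289 features. No cutoff on a measured value was used, but earlier results of these data were known when they were chosen. The data came from mouse brain: 4 control brains of genotype NestinCreERT2;TdT and 5 brains with supratentorial ependymoma (EP-ZFTA-RELA) of genotype NestinCreERT2;Fus1, all 6 to 8 weeks old. Both groups carried NestinCreERT2, an inducible Cre driven by Nestin. The TdT allele was listed for the controls only. In the tumor mice, Cre recombination in embryonic radial glia removed a stop cassette in front of the ZFTA-RELA fusion, so the fusion allele was switched on in the Nestin lineage and not, by design, in leukocytes. Tissue was dissociated, passed through Percoll, sorted with DAPI and anti-Ter119 and loaded as droplets, and each value below is a count of unique molecular identifiers (UMIs), that is, of captured RNA molecules. The Percoll step and the sort can change which cells were recovered, so the share of a cell type is not its share in the brain.

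MHC class II molecules present peptides from the endosomes of professional antigen-presenting cells (dendritic cells, B cells and macrophages) to CD4 T cells. CIITA is the co-activator without which the other genes of the pathway are barely transcribed; it binds no DNA itself and works through a complex of RFX, CREB and NF-Y factors held on a conserved promoter module. The alpha and beta chains assemble with the invariant chain, encoded by Cd74, which proteases cut down in the endosome until only a fragment fills the groove. H2-DM exchanges that fragment for an antigen peptide, and H2-O restrains H2-DM. Resting microglia carry little MHC class II and gain it on activation, above all under interferon-gamma.

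The promoter module includes a Y box, an inverted CCAAT sequence bound by NF-Y. The letters GATTGG and their reverse complement CCAATC were searched on both strands in the 250 bases before each annotated start in RefSeq (GRCm38.p6), and 4783 of 32851 promoters (14.6%) held them. Of the 9 genes, 6 (H2-Aa, H2-Eb1, H2-DMa, H2-DMb1, H2-DMb2 and H2-Oa) had an entry among those used, with 7 starts between them, all on chromosome 17. For the 9 genes, entries on the chromosome of Cd74 were not used. Of these 7 promoters, 6 held the motif. It lay 35 to 91 bases before the start in 5 genes, and 199 bases before it at the second start of H2-DMa. The promoters of 5 genes are shown, 5′ to 3′ on the strand of the gene with the motif in capitals. That of H2-Oa, which also held the motif, is not shown. H2-Aa (chr17:34287824-34288073, minus strand) and H2-Eb1 (chr17:34305617-34305866, plus strand) encode classical chains. H2-DMa (chr17:34122582-34122831), H2-DMb1 (chr17:34152941-34153190) and H2-DMb2 (chr17:34144999-34145248), all on the plus strand, encode the peptide exchange factor, and the first start of H2-DMa, shown here, held no match. A match is a description of these letters and says nothing of binding in these cells.
H2-Aa: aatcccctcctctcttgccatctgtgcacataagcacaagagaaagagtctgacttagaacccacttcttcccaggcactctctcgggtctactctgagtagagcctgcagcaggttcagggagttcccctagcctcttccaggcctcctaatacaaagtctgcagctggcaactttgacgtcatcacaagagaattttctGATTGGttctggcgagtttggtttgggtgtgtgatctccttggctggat
H2-Eb1: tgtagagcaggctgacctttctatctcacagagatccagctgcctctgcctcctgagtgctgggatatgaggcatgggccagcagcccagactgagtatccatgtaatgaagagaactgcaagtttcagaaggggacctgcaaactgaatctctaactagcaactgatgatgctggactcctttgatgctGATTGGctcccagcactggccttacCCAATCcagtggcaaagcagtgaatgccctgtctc
H2-DMa, first start: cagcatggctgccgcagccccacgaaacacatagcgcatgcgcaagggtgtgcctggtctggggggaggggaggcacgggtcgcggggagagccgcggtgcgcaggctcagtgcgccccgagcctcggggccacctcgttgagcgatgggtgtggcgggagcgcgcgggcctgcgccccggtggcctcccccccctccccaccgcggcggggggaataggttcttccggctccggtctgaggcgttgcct
H2-DMb1: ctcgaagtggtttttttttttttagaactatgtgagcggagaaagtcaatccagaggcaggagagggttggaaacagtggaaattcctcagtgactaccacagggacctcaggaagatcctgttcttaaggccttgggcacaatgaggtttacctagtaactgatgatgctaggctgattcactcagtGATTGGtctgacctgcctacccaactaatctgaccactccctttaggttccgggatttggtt
H2-DMb2: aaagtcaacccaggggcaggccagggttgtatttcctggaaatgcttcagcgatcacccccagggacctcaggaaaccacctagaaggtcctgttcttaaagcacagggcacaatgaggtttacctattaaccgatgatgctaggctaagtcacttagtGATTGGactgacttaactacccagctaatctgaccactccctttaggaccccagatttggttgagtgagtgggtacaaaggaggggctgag

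Cells were sorted by marker genes into gates, and no gate used any of the 9 genes. A leukocyte-gated cell had a UMI of at least 3 of 10 pan-leukocyte genes, which together held at least 0.2% of its UMIs. Endothelial and neuronal gates used their own lists with the same limits. A tumor-gated cell passed neither the leukocyte nor the endothelial gate and had at least 1 fusion or luciferase UMI. A neuron-gated cell also passed neither of these gates and had no fusion or luciferase UMI. Since controls held no such UMI, this last rule could remove neuron-gated cells in tumors only. Leukocytes were divided into microglia, macrophages, dendritic cells, B cells, T or NK cells and neutrophils by the list with most detected markers. After filters, 19568 control and 15745 tumor cells were kept, with 3987 to 5907 cells per control and 1577 to 5114 per tumor. Libraries held 101060608 to 178086164 UMIs in controls and 14967680 to 69411387 in tumors. Kept cells of the controls held 0 fusion and 0 luciferase UMIs, whereas every tumor held both, from 0.875 to 19.8 counts per 1000000 UMIs (CPM) of the fusion. Genes outside the gates were used to check them: Csf1r, a gene of microglia and macrophages, stood at 748 to 2459 CPM in microglia-gated cells of the 9 libraries against 9.45 to 78.4 CPM in the other cells, and Itm2a, an endothelial gene, stood at 681 to 1985 CPM in endothelial-gated cells against 5.6 to 17.7 CPM elsewhere. The gate for macrophages was led by F13a1, Pf4, Lyve1 and Mrc1. Of these, Lyve1 alone is not a marker of the gate, so the lead of the other three was fixed by it. In 8 libraries, 212 of 30654 kept cells (0.692%) had a cell barcode seen in another library. Control 4 was left out of that count because its barcode and feature lists were shorter than its matrix. It is described with the rest, and its removal is given where it changes a call.

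The cells with most MHC class II RNA were few and were not microglia. The 10 dendritic-gated cells, from 3 tumors, had a median over mice of 14662 CPM of Cd74 (5565 to 18934 CPM), and the 5 B cell-gated cells of 3 tumors had 6566 CPM (3454 to 18729 CPM). Among the named types, macrophage-gated cells came next in tumors at a median of 1567 CPM, with a range of 65.1 to 10772 CPM over the 5 mice, followed by microglia-gated cells at 74.5 CPM (43.7 to 583 CPM) and endothelial-gated cells at 19.0 CPM (2.07 to 53.5 CPM). Each neighbouring pair in this order overlapped in range, whereas dendritic- and B cell-gated cells lay above the range of microglia- and endothelial-gated cells. The 26 T or NK cells of the tumors had no Cd74 UMI. The 5600 tumor-gated cells had a median of 0.375 CPM (0 to 10.5 CPM).

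In controls the 27 macrophage-gated cells had a median of 6155 CPM of Cd74 (2924 to 11407 CPM), and the 2 B cell-gated cells, both from control 3, had 6518 CPM, within that range. The 13 control leukocytes without a subtype had 5729 CPM (2125 to 6891 CPM), all of it in 4 cells, 1 per mouse, while the other 9 had no Cd74 UMI. The microglia-gated cells had 33.0 CPM (13.2 to 84.4 CPM), below all of these levels. H2-Eb1, a classical beta chain, followed the same order in tumors, with 1974 CPM in control macrophage-gated cells, 401 CPM in those of tumors, 6036 CPM in dendritic-gated cells and 10.5 CPM in tumor microglia-gated cells, each a median over mice. H2-DMa did not show this step between macrophages and microglia in the tumors, where both gates had a median of 309 CPM; its highest level was again in dendritic-gated cells at 992 CPM (285 to 1496 CPM). H2-Oa, a chain of the inhibitor of H2-DM, was listed at a median of 145 CPM in dendritic-gated cells and 26.1 CPM in tumor microglia-gated cells, while macrophage-gated cells of the tumors held 5 UMIs in all. Ciita, the co-activator, was found as 12 UMIs in 4 of the 10 dendritic-gated cells and as 2 UMIs in 1530 tumor microglia-gated cells.

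**Figure D1:**
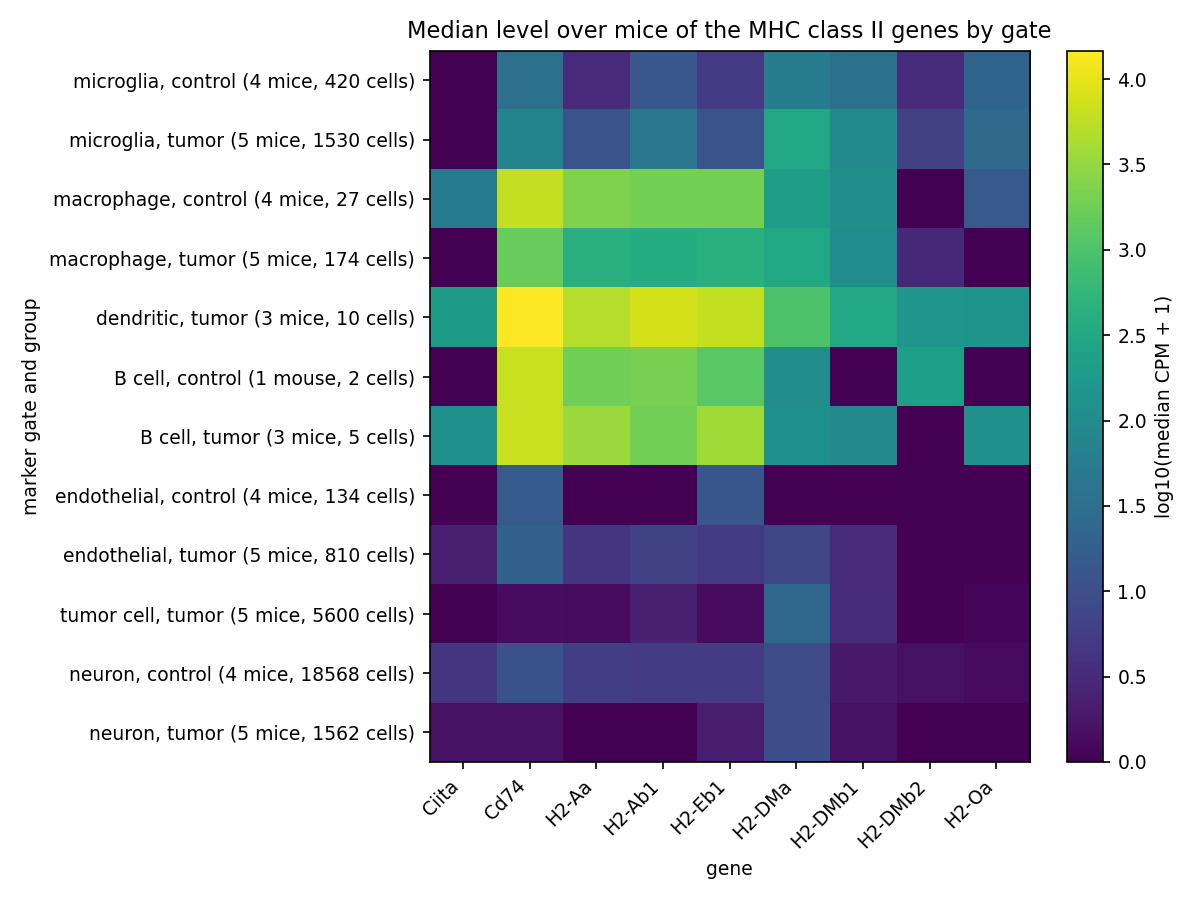
Median level over mice of each of the 9 genes (columns) in each marker gate and group (rows), as the log10 of the median CPM plus 1. Among the gates shown, for Cd74, H2-Aa, H2-Ab1 and H2-Eb1, dendritic-gated cells of the tumors (10 cells) are brightest, followed by B cell- and macrophage-gated cells, while H2-DMa is as bright in tumor microglia as in tumor macrophages.

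Over all kept cells, the peptide exchange genes were higher in tumors than in controls and Ciita was lower, while the classical chains and Cd74 varied too much between tumors to pass the test. Of the 9 genes, 5 passed the edgeR quasi-likelihood test on UMI counts summed per mouse (adjusted p under 0.05 over 17594 genes). This share is to be read against the background: 61.7% of all genes tested passed, with 32.3% of all genes higher and 29.4% lower. In such a sum over cell types, a change in the number of cells of a type cannot be told apart from a change in RNA per cell. Here and below, fitted log2 differences include a scaling factor per library that the CPM do not. A ratio of printed CPM can therefore differ from the fitted value.

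H2-DMa, the alpha chain of the exchange factor, stood at 10.3, 9.91, 10.5 and 9.05 CPM in controls 1 to 4 and at 36.1, 88.2, 48.9, 52.6 and 51.3 CPM in tumors 1 to 5. Every tumor was above every control, and the fitted log2 difference was 2.79 (SE 0.34, adjusted p = 0.000254). H2-DMb1, its beta chain, stood at 1.62, 2.56, 1.65 and 2.03 CPM in controls against 13.2, 18.6, 21.9, 9.70 and 9.70 CPM in tumors, again without overlap, with a log2 difference of 3.12 (SE 0.33, adjusted p = 0.000164). H2-Oa had a fitted log2 difference of 2.67 (SE 0.51, adjusted p = 0.00182), and stood at 0.444 to 1.00 CPM in controls and 1.83 to 9.92 CPM in tumors.

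H2-DMb2 was near the limit of detection, with 3 to 14 UMIs per control and 4 to 79 per tumor. It passed the test with a log2 difference of 2.09 (SE 0.72, adjusted p = 0.0286), but the groups overlapped and without tumor 5 the value was 1.43 (adjusted p = 0.0692). It also missed the threshold without control 2, 3 or 4, at 2.15 (adjusted p = 0.0630), 2.24 (0.0564) and 1.75 (0.0727). H2-DMb1 and H2-DMb2 are near-identical neighbours, so reads could have been assigned between them or dropped, and the level of each is uncertain.

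Cd74 stood at 21.6, 30.6, 31.9 and 24.8 CPM in the controls and at 9.15, 58.7, 102.8, 99.7 and 21.5 CPM in the tumors. Tumor 1 lay below every control and tumor 5 next to them, and the log2 difference of 1.39 (SE 0.63) gave an adjusted p of 0.0798. H2-Aa, H2-Ab1 and H2-Eb1, the classical chains, had log2 differences of 0.88, 1.17 and 1.04 with adjusted p of 0.333, 0.139 and 0.202. Tumor 1 was the lowest of the 9 mice for all 3 chains. Without it, all 9 genes passed the test, with log2 differences of 1.68 for Cd74 (adjusted p = 0.00691), 1.19 for H2-Aa (0.0440), 1.46 for H2-Ab1 (0.0188) and 1.35 for H2-Eb1 (0.0131). With every library kept, 61.7% of all genes passed, and the share of all genes that passed without tumor 1 is not given here.

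Ciita moved the other way, at 2.78, 3.53, 3.62 and 3.20 CPM in controls and 1.02, 0.415, 1.46, 0.930 and 0.497 CPM in tumors, a log2 difference of -1.73 (SE 0.35, adjusted p = 0.00236). All tumors were below all controls. Of the 235 Ciita UMIs in the controls, 226 were in neuron-gated cells, which made up 94.0% to 96.0% of control cells, and 8 were in leukocyte-gated cells. Neuron-gated cells of controls had 2.86 to 3.74 CPM of Ciita. Those of tumors, 7 to 870 cells per mouse, held 4 Ciita UMIs in all, at 0.560, 0, 2.14, 0 and 1.77 CPM in tumors 1 to 5, below every control, although 3 UMIs would have come to 1.68 to 75.9 CPM there. The 3000 barcodes with the fewest UMIs in each library are called free RNA here, with a median of 691 to 1338 UMIs in controls. Whether they also hold cells of low depth was not tested. Ciita stood at 0 to 0.499 CPM in the free RNA of the controls, so its level in the control neuron gate was above that. H2-DMa, in contrast, stood at 7.06 to 9.23 CPM in control neuron-gated cells and 6.67 to 12.97 CPM in the free RNA. The Ciita UMIs can come from any promoter of the gene, which the counts do not separate.

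**Figure D2:**
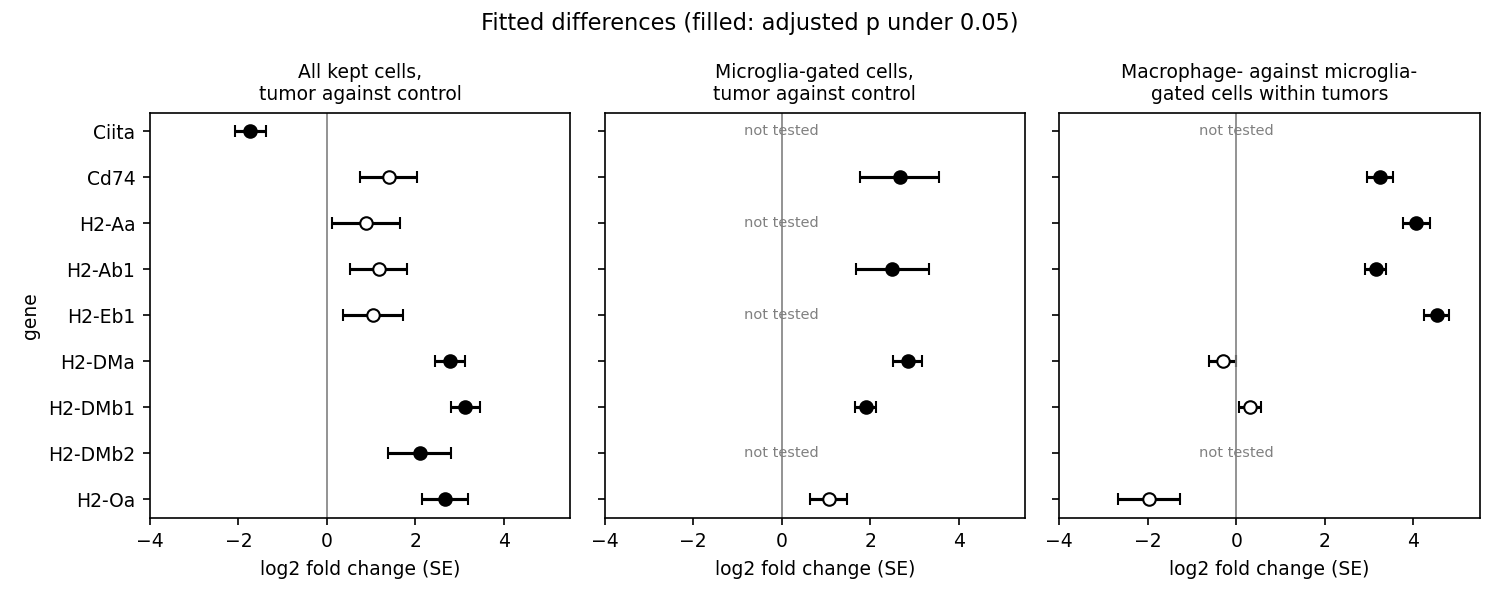
Fitted log2 differences (points, with bars of 1 SE) of the 9 genes over all kept cells, in microglia-gated cells and between macrophage- and microglia-gated cells within tumors. Filled points passed the adjusted threshold; H2-DMa and H2-DMb1 are filled in both tumor-against-control panels and open in the third, while Cd74 and the classical chains are filled in the third.

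To see which cells held these UMIs, each gate's share of the kept UMIs was counted for Cd74, H2-Aa, H2-Ab1 and H2-Eb1 together. Leukocyte-gated cells held 31.8%, 37.5%, 69.8% and 70.3% of them in controls 1 to 4 and 52.4%, 88.0%, 91.6%, 90.3% and 90.5% in tumors 1 to 5. The means were 52.4% (SD 20.6, n = 4) and 82.6% (SD 16.9, n = 5), and the ranges overlapped through tumor 1. With a stricter leukocyte gate the means were 18.1% and 68.2%. These leukocytes were 2.03% to 2.75% of control cells and 8.08% to 22.7% of tumor cells. In tumor 4 their number depended on the cell filter, at 420 of 5114 cells here, 1522 of 9178 with a mitochondrial limit of 10% and 1726 of 10273 with no limit on barcodes and no doublets removed. In controls most of the rest lay in neuron-gated cells (27.4% to 56.0%). There, Cd74 stood at 6.61 to 17.5 CPM, against 9.08 to 17.0 CPM in the free RNA; control 2, at 17.5 against 15.5 CPM, was the one control in which the gate stood above its free RNA. In that control, 7 neuron-gated cells with at least 3 of the 8 B cell markers held 88 of the gate's 356 Cd74 UMIs, and without them the gate stood at 13.2 CPM, below its free RNA (a check chosen after seeing the data).

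H2-DMa was divided differently. Leukocyte-gated cells held 9.77% to 22.5% of its UMIs in controls and 51.6% to 89.6% in tumors, without overlap, and microglia-gated cells alone held 38.0% to 83.6% in tumors. For the 4 classical genes, macrophage-gated cells, 0.110% to 2.88% of tumor cells, held 7.32% to 51.5% of the tumor UMIs. In tumor 3, 3 B cell-gated cells held 30.2%, and in tumors 2 and 4, 2 and 7 dendritic-gated cells held 22.7% and 26.5%. Much of the classical MHC class II RNA of a library thus lay in a few cells.

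**Figure D3:**
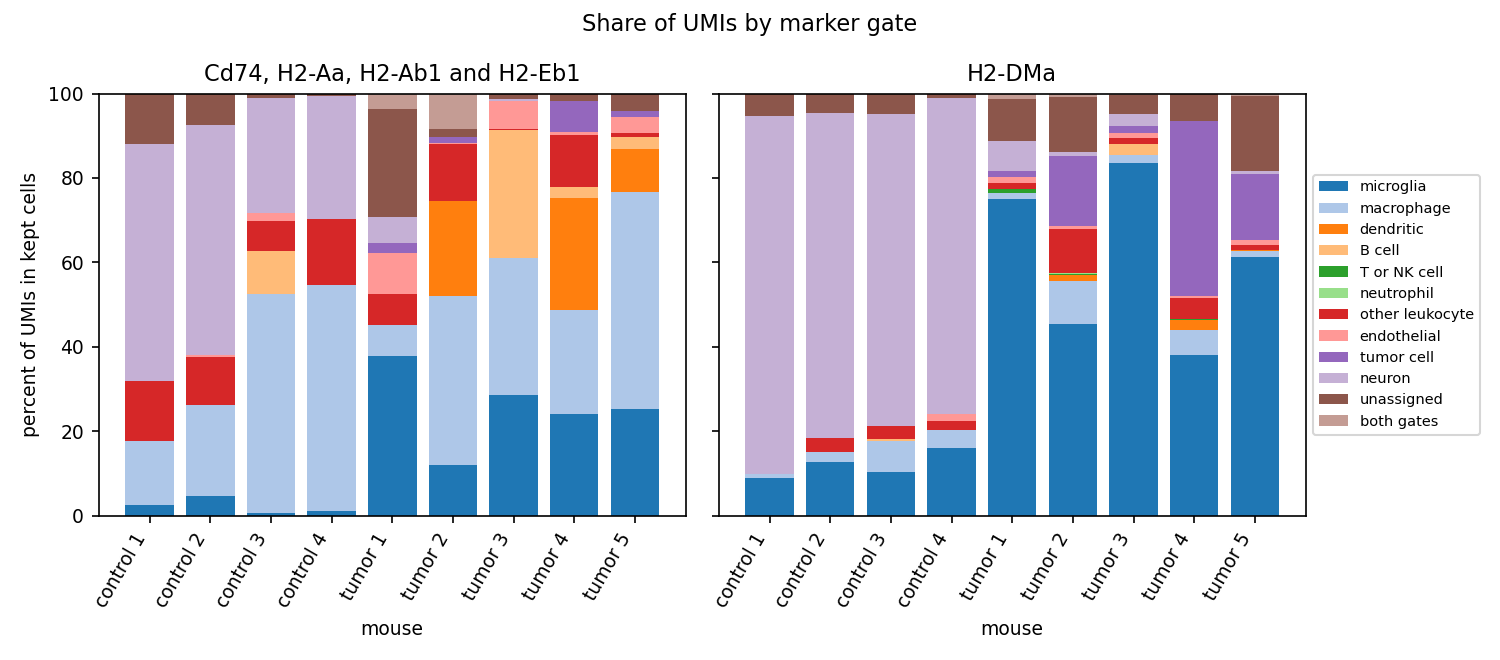
Percent of the UMIs in kept cells that lay in each marker gate, for Cd74, H2-Aa, H2-Ab1 and H2-Eb1 together (left) and for H2-DMa (right), by mouse; cells that passed the leukocyte and the endothelial gate are shown as both gates. The leukocyte gates hold 52.4% or more of the classical UMIs in every tumor, and microglia hold most of the H2-DMa UMIs in tumors 1, 3 and 5.

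Within leukocyte-gated cells taken as a whole, the chains of H2-DM were higher in tumors and the other genes tested did not pass. Of the 9 genes, 7 had enough counts to be tested and 2 passed, H2-DMa with a log2 difference of 2.35 (SE 0.35, adjusted p = 0.000408) and H2-DMb1 with 1.59 (SE 0.24, adjusted p = 0.000455); of all 8829 genes tested, 38.4% passed. H2-DMa stood at 54.4, 68.1, 95.3 and 86.6 CPM in controls and 231, 307, 146, 385 and 395 CPM in tumors. Cd74 ranged from 394 to 986 CPM in controls and from 49.6 to 1266 CPM in tumors, so the tumors spanned the controls on both sides. Its log2 difference was -0.11 (SE 0.70, adjusted p = 0.920), with a sign that changed under several alternatives, and those of H2-Aa (-0.56), H2-Ab1 (-0.28) and H2-Eb1 (-0.17) also had SEs above 0.7. H2-Oa had 0.90 (SE 0.40, adjusted p = 0.0965), and passed without control 4 (1.32, adjusted p = 0.0451) or tumor 2 (1.08, adjusted p = 0.0386), with no filter on low counts (1.06, adjusted p = 0.04995), with the looser gate (1.11, adjusted p = 0.0324) and with no limit on barcodes and no doublets removed (1.65, adjusted p = 0.0306). SEs of this size leave room for a large difference in either direction. With no limit on barcodes, controls 3 and 4 kept 65781 and 70242 barcodes as cells, against 11556 and 8402 in controls 1 and 2. The values of that setting are limited by this. Macrophage-gated cells were 4 of 120, 8 of 138, 9 of 103 and 6 of 118 leukocytes in controls and 13 of 260, 88 of 637, 23 of 358, 46 of 420 and 4 of 294 in tumors. Their share was thus highest in tumors 2 and 4 and lowest in tumor 5, with overlap between the groups.

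Microglia were the one leukocyte type with enough cells in every mouse, 87 to 119 cells per control and 223 to 434 per tumor. In them, H2-DMa and H2-DMb1 were higher in every tumor than in any control, and Cd74 and H2-Ab1 also rose, with calls that were lost without tumor 4 or without 1 of 3 controls. Of the 5 genes with enough counts, 4 passed the edgeR test, where 40.5% of 8175 genes passed (20.7% higher).

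H2-DMa stood at 56.9, 56.9, 55.9 and 69.4 CPM in microglia-gated cells of controls 1 to 4, and at 259, 309, 156, 384 and 400 CPM in those of tumors 1 to 5. The lowest tumor was above the highest control, with a log2 difference of 2.84 (SE 0.33, adjusted p = 9.4e-05). A UMI of H2-DMa was found in 18.3% (SD 5.63, n = 4) of control microglia-gated cells and 61.6% (SD 15.6, n = 5) of tumor ones as sequenced, and in 5.68% (SD 1.83) and 24.8% (SD 7.75) after each cell was thinned to 1000 UMIs. Every tumor was above every control at equal depth as well, and also with the mean over all possible thinnings (5.05% to 6.74% in controls and 14.6% to 31.7% in tumors). Thinning makes the depth equal but not the share of free RNA in a cell. For H2-DMb1 the thinned share depended on the draw. In 1 random draw it was 2.30% to 6.72% in controls and 5.96% to 7.83% in tumors, with overlap (two-sided exact permutation p = 0.0794). With the mean over all draws, chosen after seeing the data, it was 1.93% to 4.11% and 6.15% to 9.12%, without overlap (exact permutation p = 0.0159). H2-DMb1 stood at 37.9, 40.1, 23.0 and 30.1 CPM in controls and at 92.3, 80.2, 71.8, 96.6 and 94.4 CPM in tumors, with a log2 difference of 1.90 (SE 0.24, adjusted p = 0.000135). Both chains passed under every alternative in which they were tested, with H2-DMb1 too sparse for a test under 1 of them.

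H2-Oa missed the threshold at a log2 difference of 1.07 (SE 0.42, adjusted p = 0.0580), and passed it without tumor 2 (1.17, adjusted p = 0.0351). It also passed under 2 of 13 alternatives that leave out no library, which gave log2 differences of 0.671 to 1.22. It stood at 28.5, 14.8, 6.58 and 27.7 CPM in controls and 53.4, 14.2, 32.3, 26.1 and 25.4 CPM in tumors, so the groups overlapped. H2-DMb2 was too sparse to test, at 0 to 9.87 CPM in controls and 4.58 to 5.62 CPM in tumors. The difference between the effects on H2-DM and on H2-Oa was not tested.

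Cd74 stood at 52.2, 84.4, 13.2 and 13.9 CPM in control microglia-gated cells and at 43.7, 54.6, 120.8, 583 and 74.5 CPM in tumor ones. Tumor 4 stood far above the next tumor, and tumors 1, 2 and 5 lay within the range of the controls. The log2 difference of 2.66 (SE 0.89, adjusted p = 0.0295) passed the test. Without tumor 4 it was 1.21 (adjusted p = 0.0707), and without control 1, 3 or 4 it was 2.75 (0.0659), 2.33 (0.0977) and 2.34 (0.0935). With limma voom it was 2.14 (adjusted p = 0.137), and with the replicate number as a block it also missed the threshold. H2-Ab1, a classical beta chain, stood at 19.0, 23.2, 6.58 and 4.62 CPM in controls and 4.86, 44.9, 23.4, 124.7 and 50.0 CPM in tumors. Tumors 2 to 5 were above the highest control, tumor 3 only just, and tumor 1 was within the range of the controls. The log2 difference of 2.50 (SE 0.82, adjusted p = 0.0280) was 1.68 (adjusted p = 0.0563) without tumor 4 and 2.11 (adjusted p = 0.396) with limma voom. Without control 1, 3 or 4 it was 2.62 (0.0571), 2.23 (0.0916) and 2.16 (0.0947).

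H2-Aa and H2-Eb1 had too few UMIs in controls, 9 and 11 in 420 cells, to be tested. H2-Aa stood at 0, 14.8, 0 and 4.62 CPM in controls and 0, 11.0, 22.8, 83.3 and 5.55 CPM in tumors, and H2-Eb1 at 4.74, 16.9, 3.29 and 2.31 CPM in controls and 1.62, 10.5, 10.6, 70.6 and 7.14 CPM in tumors. Tumor 4 was the highest mouse for both. Ciita was not detected in the 420 control microglia-gated cells and was found as 1 UMI each in tumors 2 and 4, so a difference was not detectable at this depth.

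**Figure D4:**
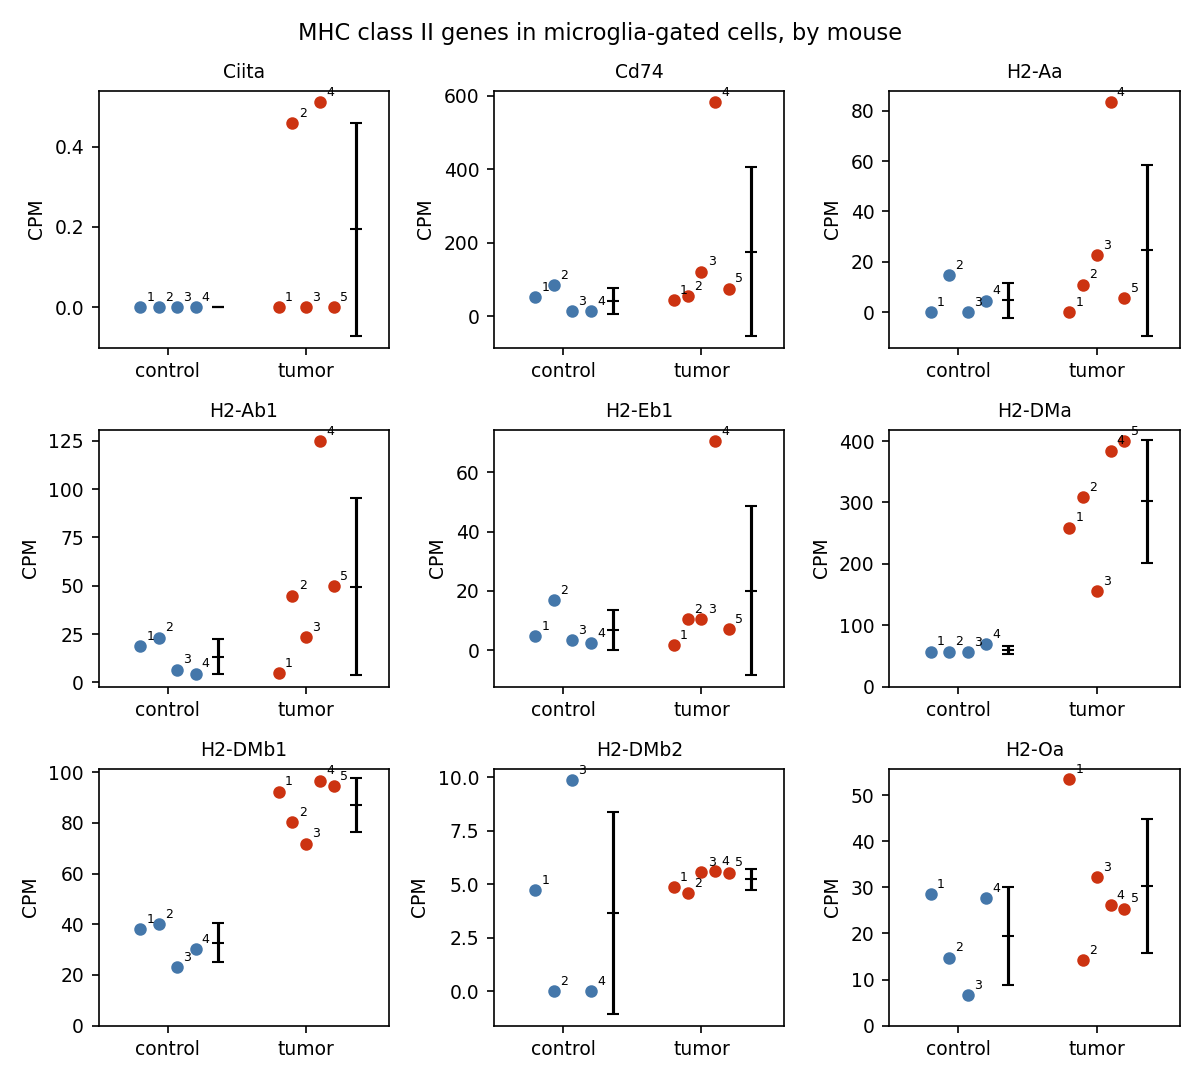
Level in CPM of each gene in microglia-gated cells, 1 point per mouse with its number, beside the mean and SD (black) of 4 controls and 5 tumors. H2-DMa and H2-DMb1 separate the groups, while in Cd74, H2-Aa, H2-Ab1 and H2-Eb1 tumor 4 stands apart and the other tumors lie nearer the controls.

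Markers of other cells moved with the groups in the same gate. The 8 macrophage markers summed to 47.4 to 118 CPM in control microglia-gated cells and 610 to 6229 CPM in tumor ones, of which Lyz2 made up 42.7 to 104 and 557 to 5774 CPM; Lyz2 is also made by activated microglia. Among the defining macrophage markers, Mrc1 was at 0 to 16.4 CPM in controls and 3.96 to 127 CPM in tumors, and Ms4a7 at 0 to 2.31 and 0 to 267 CPM. Pf4 was at 0 to 6.58 and 0 to 83.4 CPM, whereas F13a1, Cd163, Ccr2 and Ly6c2 stayed at or under 9.87 CPM in every mouse, with no higher range in tumors except Ccr2 (0 to 4.22 and 0 to 6.12 CPM) and Ly6c2 (0 and 0 to 0.511 CPM). The 8 B cell markers summed to 213 to 247 CPM in controls and 44.5 to 245 CPM in tumors, most of it Ighm (150 to 185 and 36.2 to 191 CPM) and Bank1, while Ms4a1, which defines B cells, was at 0 in all 9 mice. The 8 dendritic markers summed to 4.62 to 14.8 CPM in controls and 2.56 to 11.7 CPM in tumors. The 10 neuron genes went the other way, at 3397 to 4440 CPM in controls and 68.5 to 957 CPM in tumors. The libraries held 75222 to 86516 barcodes in controls and 9001 to 26341 in tumors. Neuronal RNA in a microglia-gated cell lowers the CPM of its other genes, and its part in the differences of this gate was not tested. Keeping only microglia-gated cells with no UMI of the dendritic list, of the macrophage list other than Lyz2, or of genes restricted to B cells left all 5 tested genes past the threshold, with log2 differences of 2.81 for H2-DMa, 1.94 for H2-DMb1, 2.08 for Cd74 (adjusted p = 0.0494), 1.91 for H2-Ab1 (adjusted p = 0.0446) and 1.07 for H2-Oa (adjusted p = 0.0432). The share of all genes that passed in that fit is not given here, and was 40.5% in the whole gate. When cells with Lyz2 or any other UMI of these lists were left out too, tumor 4 had only 2 cells and dropped out, and H2-DMa was the only gene with enough counts for a test, at 1.77 (adjusted p = 0.000377). The part of these cells in the values of Cd74 and H2-Ab1 was otherwise not tested.

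The share of microglia-gated cells with a Cd74 UMI was compared at a fixed depth of 1000 UMIs per cell, which left no cell out. It was 4.67% (5 of 107 cells; exact binomial 95% interval 1.53% to 10.6%), 4.20%, 2.30% and 0% in controls 1 to 4; 0 of 107 cells allows a share of cells with a UMI of up to 2.80% by the rule of 3 counts, and the upper bound of the exact interval is 3.39%. In tumors 1 to 5 it was 4.93%, 5.07%, 6.04%, 22.8% (69 of 302 cells; 18.2% to 28.0%) and 5.86%. The lowest tumor was above the highest control by less than the width of these intervals, which cover counting error only. The mean difference was 6.16 percentage points, with p = 0.0159 in a two-sided exact permutation test over mice, the smallest p that 4 against 5 mice allow. That result depended on the single random draw of the thinning: with the mean over all possible draws, the shares were 4.43%, 4.64%, 1.13% and 1.27% in controls and 4.15%, 3.91%, 6.07%, 22.2% and 5.60% in tumors, tumors 1 and 2 fell below controls 1 and 2, and the exact permutation p was 0.0952. Unthinned, the shares were 3.45% to 10.9% in controls and 10.8% to 52.0% in tumors, at median depths of 1905 to 3945 and 2500 to 6324 UMIs per cell. As a measure of background, 0% to 13.5% of endothelial-gated cells of the 9 mice had a Cd74 UMI at median depths of 2261 to 6782 UMIs, and so did 1.97% to 4.52% of neuron-gated cells in controls. In tumor 4 the microglial share was above its own endothelial share of 12.9% and its tumor-gated share of 5.57%. In the other tumors the unthinned microglial share was 10.8% to 18.1%, against 1.18% to 4.19% in their own endothelial-gated cells, and in controls 3.45% to 10.9% against 0% to 13.5%.

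**Figure D5:**
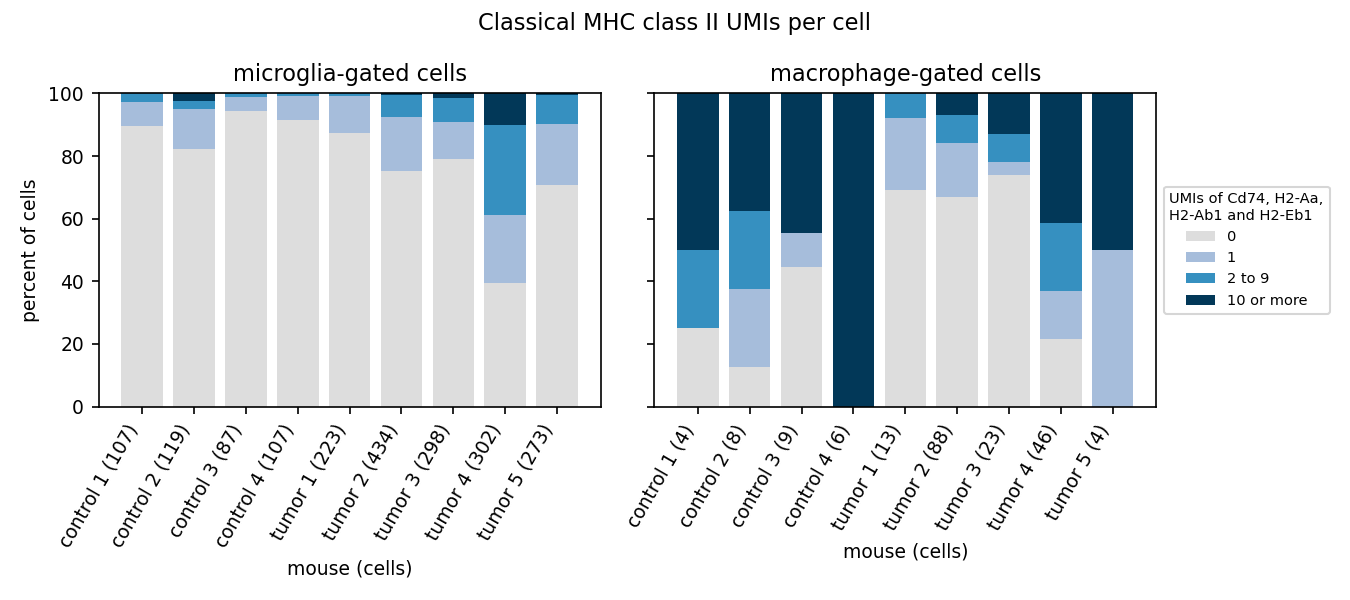
Percent of microglia-gated (left) and macrophage-gated (right) cells with 0, 1, 2 to 9, or 10 or more UMIs of Cd74, H2-Aa, H2-Ab1 and H2-Eb1 together, by mouse with the number of cells. Most microglia-gated cells have 0 such UMIs in every mouse except tumor 4, and macrophage-gated cells span all 4 classes, with 59 of 88 cells at 0 in tumor 2 and 19 of 46 cells at 10 or more in tumor 4.

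The macrophage and microglia gates were compared within tumors 2, 3 and 4, the tumors with at least 20 cells of both, with the mouse as a block. The classical genes were far higher in macrophage-gated cells and the peptide exchange genes were not. Of the 7 genes tested, 4 passed, against 1.85% of all 9741 genes (0.903% higher and 0.944% lower in macrophages). H2-Eb1 differed by 4.52 on the log2 scale (SE 0.28, adjusted p = 6.1e-07), at 277, 401 and 1150 CPM in macrophage-gated cells against 10.5, 10.6 and 70.6 CPM in microglia-gated cells of the same 3 tumors. H2-Aa differed by 4.07 (SE 0.30, adjusted p = 1.6e-06), H2-Ab1 by 3.15 (SE 0.24, adjusted p = 1.6e-06) and Cd74 by 3.25 (SE 0.29, adjusted p = 8.6e-06). Cd74 was higher in macrophage-gated cells in all 3 mice, at 780, 1567 and 3069 CPM against 54.6, 120.8 and 583 CPM.

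For the peptide exchange genes the same comparison gave -0.31 for H2-DMa (SE 0.30, adjusted p = 0.863), 0.32 for H2-DMb1 (SE 0.25, adjusted p = 0.805) and -1.97 for H2-Oa (SE 0.70, adjusted p = 0.243). H2-Oa passed as lower in macrophages with no filter on low counts (-2.05, adjusted p = 0.0307) and with cells carrying other leukocyte markers removed (-2.15, adjusted p = 0.0178), and without tumor 2, 3 or 4 it was -7.91, -1.51 and -1.30. H2-DMa stood at 309, 42.9 and 426 CPM in macrophage-gated cells and at 309, 156 and 384 CPM in microglia-gated cells. The macrophage values rest on few cells. Of the classical UMIs in macrophage-gated cells, the 5 cells with most held 93.8% in tumor 2 (of 88 cells), 99.7% in tumor 3 (of 23) and 64.2% in tumor 4 (of 46), and 59, 17 and 10 cells had none. H2-Eb1 and H2-Aa were also among the 10 genes that led the macrophage gate over all other cells, although neither defines it.

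In endothelial-gated cells, 30 to 37 per control and 140 to 191 per tumor, only Cd74 had enough counts to be tested, and its log2 difference of -0.18 (SE 0.91, adjusted p = 0.915) did not pass (unadjusted p = 0.846), where 25.5% of 7372 genes did; DESeq2 and limma voom called none either. Cd74 stood at 0, 28.2, 71.2 and 0 CPM in controls and 8.58, 2.07, 53.5, 29.1 and 19.0 CPM in tumors, so the groups overlapped. In the 134 control cells it was found as 18 UMIs, and without control 3, which held 13 of them, the value was 1.17. All 13 lay in 1 of the 35 cells of control 3, which also had a UMI of 4 of the 8 B cell markers. In tumors 3 and 5, too, 1 cell with at least 3 of these markers held 36 of 49 and 12 of 14 Cd74 UMIs. Without such cells, of which tumor 4 had 1 as well, Cd74 stood at 0, 28.2, 0 and 0 CPM in controls and 8.58, 2.07, 14.4, 23.3 and 2.75 CPM in tumors.

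Whether the tumor effect differed between the microglia and endothelial gates was tested as an interaction over 7 genes. In the 134 control endothelial-gated cells, H2-Aa, H2-DMb1 and H2-Oa had 0 UMIs, H2-Ab1 had 1 and H2-DMa had 3, so for these 5 genes a missed threshold says nothing. None of the 7 passed, where 2.66% of 10765 genes did (1.29% higher and 1.37% lower). Cd74 had the interaction value 2.58 (SE 1.07, adjusted p = 0.265) and H2-Eb1 3.14 (SE 1.23, adjusted p = 0.229). Their unadjusted p from edgeR were 0.0273 and 0.0203, the 2 of the 7 genes under 0.05, and DESeq2 and limma voom called none. Both passed with no filter on low counts, at 2.58 (adjusted p = 0.000142) and 3.14 (0.0172), and without tumor 3, at 3.42 (0.0388) and 4.16 (0.0356). Without control 3, with the 1 cell described above, they were 0.88 (adjusted p = 0.873) and 2.07 (0.688).

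Tumor-gated cells had little RNA of Cd74 and the classical chains and more of H2-DMa. Over the 5600 cells, of which 3593 came from tumor 4, a UMI of Cd74 was found in 3.82%, of H2-Aa in 1.09% and of H2-DMa in 17.8%. By tumor, the Cd74 share was 0%, 1.43%, 0%, 5.57% and 0.198% in tumors 1 to 5. Tumor-gated cells held 1.41%, 16.6%, 1.49%, 41.4% and 15.6% of the H2-DMa UMIs of tumors 1 to 5. Tumor 4 had 296 of the 317 Cd74 UMIs, at 10.5 CPM, while its free RNA had 68.0 CPM. H2-DMa stood at 10.5, 41.2, 7.24, 29.1 and 24.2 CPM in tumor-gated cells of tumors 1 to 5, against 11.4, 37.4, 29.1, 54.1 and 19.4 CPM in the free RNA of the same libraries. The tumor-gated level was above that of the free RNA in tumors 2 and 5 and below it in the other three. Since there were no such cells in controls, no comparison with a control was possible.

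The other genes of the pathway were described from a list by role, of which 29 of 33 symbols were in the feature list, and the remaining symbols are not analysed here. In microglia-gated cells, 13 of 22 tested rose and none fell, with a median log2 difference of 0.85 against 0.07 over all genes tested, of which 20.7% rose and 19.8% fell. All 6 genes of lysosomal processing rose, with a median of 2.05. Ifi30, the lysosomal thiol reductase, stood at 73.2 CPM (SD 15.7, n = 4) in controls and 550 CPM (SD 224, n = 5) in tumors. Its fitted log2 difference was 3.45 (SE 0.39, adjusted p = 8.9e-05). Ctsl, a cathepsin, had the smallest p of the role, at a log2 difference of 1.88 (SE 0.21, adjusted p = 8e-05). Ctss, the cathepsin that trims the invariant chain in myeloid cells, had a fitted log2 difference of 1.81. Before scaling between libraries it stood at 2350 CPM (SD 218) in controls and 5812 CPM (SD 755) in tumors.

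Of the 8 tested genes of interferon-gamma signalling and myeloid identity, 6 rose, among them Irf1, Irf8 and Spi1. Irf1, a transcription factor induced by interferon, stood at 3.29 to 23.7 CPM in controls and 24.8 to 50.6 CPM in tumors, with tumor 4 highest, and had a log2 difference of 1.77 (SE 0.43, adjusted p = 0.00551). Spi1, the myeloid transcription factor PU.1, had the smallest p of the role, at 1.25 (SE 0.20, adjusted p = 0.000525); it is also 1 of the 10 leukocyte gate markers, so its level is tied to the gate. Jak1 and Jak2, the kinases of the interferon receptor, had log2 differences of 0.12 and -0.14 and did not pass. Socs1, an inhibitor of the same receptor that interferon induces, was too sparse to test, at 0 to 2.11 CPM in controls and 2.29 to 19.9 CPM in tumors, and was again highest in tumor 4.

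None of the 4 tested factors of the promoter module, Creb1, Nfya, Nfyb and Rfxap, passed in microglia-gated cells. Nfyb came nearest at -0.72 (SE 0.31, adjusted p = 0.0843), with an unadjusted edgeR p of 0.0390, the 1 of the 4 under 0.05, and in leukocyte-gated cells it fell by 0.92 (SE 0.28, adjusted p = 0.0190). Cd86, a co-stimulatory ligand, had a fitted log2 difference of 1.59 (SE 0.24, adjusted p = 0.000378), and stood at 75.6 to 99.6 CPM in controls and 120 to 297 CPM in tumors. H2-Ob, which pairs with H2-Oa, had a log2 difference of 0.77 (SE 0.33, adjusted p = 0.0826), and March1, the ligase that takes MHC class II off the surface of the cell, had 0.07 (SE 0.25).

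Elsewhere the same list gave 20 genes up and 1 down (March1, -1.32) of 28 over all kept cells, with a median log2 difference of 1.98, where 32.3% of all genes rose and 29.4% fell. It gave 12 up and 1 down of 23 in leukocyte-gated cells, where 17.7% of all genes rose and 20.7% fell, and 5 up and 0 down of 15 in endothelial-gated cells, where 12.9% rose and 12.6% fell. All 6 lysosomal genes rose in all cells and in leukocyte-gated cells, and 3 of 5 rose in endothelial-gated cells. Between macrophage- and microglia-gated cells of the tumors, 2 of 28 passed, Ctsl (-1.46, adjusted p = 0.00738) and Ctsd (-1.13, adjusted p = 0.0437), both lower in macrophages, where 1.85% of all genes passed. The interaction of microglia and endothelium passed for 4 of 25, against 2.66% of all genes. Ctsb, Ctss and Ifi30 rose in microglia-gated cells and had interaction values of 1.77, 1.54 and 3.97. March1 had an interaction value of 3.25 although its log2 difference in microglia-gated cells was 0.07. Ifi30 and March1 were too sparse for a test in endothelial-gated cells alone, with 13 and 12 UMIs in those of the controls.

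Among genes outside the 9, those whose log2 level was most like the mean of the 9 over 12 sums (9 microglia and 3 macrophage sums) were Anxa5 (Pearson r 0.956), Sap30 (0.949), Mpp1 (0.948), Dram1 (0.947), Igf1 (0.945), Ptma (0.935), C3 (0.934), Ms4a4c (0.928), Xdh (0.924) and Crip1 (0.920). These sums share mice and gates, 9 of the 10 were highest in the macrophage sum of tumor 4 and Crip1 in that of tumor 2, so the values describe the step between the gates. Each of the 9 was set against the mean of the other members, which for Cd74, H2-Aa, H2-Ab1 and H2-Eb1 still holds the other three with the same step. The values were 0.962 for H2-Ab1, 0.960 for Cd74, 0.929 for H2-Aa and 0.925 for H2-Eb1, then 0.758 for H2-DMb1, 0.731 for Ciita, 0.403 for H2-DMa, 0.120 for H2-DMb2 and -0.645 for H2-Oa.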

How the data were processed

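Each library was a separate sample of brain or tumor measured by droplet single-cell RNA sequencing (5′ end). The sources used here do not say for each library whether it was 1 mouse or pooled, and a caption of the study counts fewer mice for tumor single-cell sequencing than there are tumor libraries, so libraries may share a mouse; libraries are called mice in the text, and p-values measure only the spread between these 9 libraries. The authors aligned the reads to mm10 with fusion and luciferase sequences added (Cell Ranger; the submitters' notes name version 7 and the file headers an earlier one) and deposited unnormalized UMI counts per gene and barcode, in which the smallest barcode held 468 to 517 UMIs. The genes of control 4, whose feature list was 2 short, were named by the row order of the other libraries (Pearson r 0.995 with control 3 over 32285 mouse genes).

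From these counts, the 10000 barcodes with most UMIs per library were considered if they had 200 to 6000 genes. A Gaussian mixture was fitted per library to their mitochondrial share and number of genes together (scikit-learn 1.9.0). Barcodes of the component with the lower mean mitochondrial share were kept. Of these, the cells with the highest Scrublet scores (Scanpy 1.11.5) were removed as doublets. The share removed, 1.25% to 4.97%, was preset from the number of cells and is not a measured doublet rate. Kept cells had a median of 2057 to 6525 UMIs. The mixture removed barcodes with a mean mitochondrial share of only 3.68% and 4.84% in tumors 4 and 5. UMIs were summed per mouse and gate with at least 20 cells and fitted across all genes with edgeR 4.0.16 (TMM, filterByExpr, quasi-likelihood test, Benjamini-Hochberg adjustment, R 4.3.3). CPM are counts per 1000000 UMIs of the gate, without the TMM scaling of the fits. Exact permutation tests over mice (scipy 1.17.1) were two-sided. Genes named are the 9 genes, the pathway list with the smallest p per role among those that passed, and the 10 genes most like the mean of the 9 (Pearson r of log2(CPM + 10)); other pathway genes were named after their values were seen. The genes, gates and lists were chosen with earlier results of these data known. Alternatives were DESeq2 1.42.0, limma voom 3.58.1, no low-count filter, other cell filters and gates, each library left out, and the replicate number as a block. Some genes of the lists are not reported here.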

Additional observations from a re-analysis of the deposited data

Results flagged for a closer look

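Of 62 groups of 4 or 5 libraries checked, 9 had a highest library that stood far from the others by Dixon's test; chance alone gives such a gap in about 5% of groups, and values of related genes in 1 library are not independent. Tumor 4 accounted for 6 of them. In its microglia-gated cells Cd74 stood at 582.8 CPM (next tumor 120.8 CPM), H2-Aa at 83.3 CPM (next 22.8 CPM) and H2-Eb1 at 70.6 CPM (next 10.6 CPM). In its leukocyte-gated cells Cd74 stood at 1266 CPM (next 314.5 CPM), H2-Eb1 at 364.9 CPM (next 85.5 CPM) and Ciita at 9.06 CPM, as 24 UMIs (next 1.52 CPM). The microglia-gated cells of tumor 4 were also the most deeply sequenced, with a median of 6324 UMIs, and its free RNA held most Cd74, at 68.0 CPM; their part in these values was not tested.

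In tumor-gated cells, tumor 5 had 6.00 CPM of H2-DMb2 (32 UMIs) while the next tumor had 0.178 CPM. In controls, H2-DMa in microglia-gated cells was highest in control 4 at 69.4 CPM (next 56.9 CPM, 30 UMIs in control 4), and H2-Eb1 was highest in control 2 at 16.9 CPM (8 UMIs, next 4.74 CPM).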

How the results depend on the processing

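The direction and call of H2-DMa and H2-DMb1 were the same under every alternative that tested them over all kept cells, in leukocyte-gated cells and in microglia-gated cells, with log2 differences of 2.49 to 3.04, 2.19 to 2.91 and 1.77 to 3.03 for H2-DMa. Over all kept cells, the number of genes called was 5 under 6 alternatives and 4 with the replicate number as a block, and 4 to 9 with a library left out, at 9 without tumor 1. In microglia-gated cells it was 4 in the analysis reported, 2 with limma voom, 1 among cells with no UMI of other leukocyte lists (an alternative chosen after seeing the data), and 2 to 5 with a library left out, at 2 without control 1, control 3, control 4 or tumor 4. For the interaction it was 2 with no filter on low counts and 0 to 2 with a library left out. The shares of all genes that passed under these alternatives are not given here, so a change in these counts can reflect a change over all genes. The replicate numbers showed no clear pairing of the mice (correlations of deviations 0.0529, 0.0239, -0.00662 and 0.0388). Such correlations over whole libraries cannot exclude a shared batch. As a block the replicate numbers took H2-DMb2 over all cells to 1.47 (adjusted p = 0.101) and Cd74 in microglia-gated cells to 2.14 (adjusted p = 0.0972), and left 2 genes called in leukocyte-gated, 4 in microglia-gated (not the 4 reported, since Cd74 was not among them) and 0 in endothelial-gated cells. H2-Ab1 in microglia-gated cells missed the threshold with the stricter gate (adjusted p = 0.0657) and with no barcode limit (0.0543), a setting whose cell numbers are given below.

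The Cd74 share differed by 5.01 points with a mitochondrial limit of 10% (exact permutation p = 0.143), 4.92 with no doublets removed (exact permutation p = 0.111), 5.51 as a mean over all thinnings (exact permutation p = 0.0952) and 2.68 to 7.16 with a mouse left out. The leukocyte share of classical UMIs in controls was 18.1% with the stricter gate. In leukocyte-gated cells signs turned: Cd74 was 0.049 with no filter, 0.28 with the stricter gate and -1.18 to 0.23 with a mouse left out, H2-Ab1 -1.37 to 0.045 and H2-Eb1 -1.30 to 0.20; with no barcode limit and no doublets removed Cd74 was 1.54, H2-Aa 0.81, H2-Ab1 1.06 and H2-Eb1 1.22. With no barcode limit, controls 3 and 4 kept 65781 and 70242 barcodes, against 11556 and 8402 in controls 1 and 2. Their microglia-gated cells numbered 63 and 60 in that setting, against 87 and 107 in the analysis reported. The values of that setting are limited by this. In endothelial-gated cells Cd74 was 0.26 with limma voom, 0.023 with no filter and -0.63 to 1.17 with a mouse left out. Between macrophages and microglia H2-DMa was 0.38 with 5000 barcodes and -0.63 to 0.085 with a mouse left out. It was 0.0029 with cells of both gates removed if they carried dendritic markers or genes restricted to B cells. Microglia-gated cells with macrophage markers other than Lyz2 were removed in that fit too. For the interaction, DESeq2 gave 1.09, 0.61 and 2.04 and limma voom 2.11, 1.84 and 2.66 for H2-Aa, H2-DMb1 and H2-Oa, and with a mouse left out H2-Ab1 spanned -2.75 to 1.94, H2-DMa -2.73 to 2.34 and H2-Oa -1.61 to 1.12. The cause of these changes was not tested. Not run, for want of samples, were the endothelial fit with 10% mitochondrial UMIs or 50 cells, the macrophage fit with 50 cells, and the interaction with 10% mitochondrial UMIs, 5000 barcodes or 50 cells. The fit of endothelial-gated cells with 5000 barcodes held 1 control. Counts of UMIs limit what can be seen: Ciita, H2-DMb2, H2-Aa and H2-Eb1 were too sparse in microglia-gated cells for a test.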

Other observations

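A few more cells with MHC class II RNA lay outside the comparisons. Cells with UMIs of at least 3 of 8 B cell markers, taken without the leukocyte gate (chosen after seeing the data), numbered 2, 7, 9 and 3 in controls 1 to 4 and 0, 1, 7, 5 and 2 in tumors 1 to 5. They held 3.62%, 11.7%, 17.8% and 1.65% of the classical UMIs in controls and 0%, 0.587%, 35.0%, 3.75% and 5.68% in tumors. In control 2 all 7 of these cells passed the neuron gate, and each had a Cd74 UMI, with 88 such UMIs in all.

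Kit and Ly6a are markers of hematopoietic stem and progenitor cells that other cells share. Leukocyte-gated cells with UMIs of both and no UMI of Cd3e, Cd79a or Itgam were counted. They numbered 1 in control 4, with 64 classical UMIs, and 1 in tumor 2, with 227. The other 7 libraries had none, so no comparison between groups was made.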
